A study of Mus musculus with 6 samples.

Results

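The genes described here encode the machinery that carries a nascent secretory protein into the endoplasmic reticulum (ER), removes its signal peptide and attaches the first N-glycan. They were chosen by name, with earlier results of these data known. The list holds 36 mouse genes of 22298 in the expression table, and it covers subunits of the signal recognition particle (SRP), the SRP receptor, the Sec61 translocon, the translocon-associated protein complex (TRAP), signal peptidase and oligosaccharyltransferase (OST). All 36 were found in the table, and all 36 passed the filter on low counts. The samples were MIN6 cells, a mouse insulinoma line used as a model of the pancreatic β-cell, with 3 control samples and 3 samples after chronic epinephrine exposure. Both groups are cultures of the same tumour-derived line, grown outside an islet. In the scheme of the study, cells received 100 nM epinephrine over 3 days and were then left without it for 2 days. The text does not name the day of RNA collection, so it is not known here whether the epinephrine was still present. RNA was read on a Novaseq6000. The statistics section of the study describes replicates in general as biological and independent, and the labels add nothing on how the sequenced cultures were kept apart, so p-values measure the spread between these samples.

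Most secretory proteins, preproinsulin among them, enter the ER while they are being translated. SRP binds the signal peptide as it leaves the ribosome and docks at the SRP receptor, and the ribosome is then passed to the Sec61 channel. TRAP and TRAM help particular substrates through the channel, signal peptidase cuts the signal peptide, and OST transfers a preassembled glycan to asparagine residues. In β-cells this entry route carries a heavy load, because insulin makes up a large part of the protein synthesised.

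Total counts were 15017065 to 17457583 in the controls and 15256957 to 18127171 after epinephrine, and the listed genes had between 205 counts (Srp19) and 20708 counts (Rpn2) in a sample. Control 1 stood apart from the other libraries. The Pearson correlation of log2 CPM (counts scaled to the library total) across genes was 0.979 and 0.978 between control 1 and controls 2 and 3, against 0.992 to 0.993 for the other pairs within a group. All 12 β-cell markers had counts in every sample, and they summed to 52950 to 68180 CPM in the controls and 61520 to 62910 CPM after epinephrine. Of the 12, 1 (Iapp) was higher and 6 were lower after epinephrine without overlap, against 14.3 and 13% of all genes tested. Of the 6, Ins1 (log2 fold change -0.50, FDR 0.0152, edgeR) and Slc2a2 (-0.76, FDR 0.00434) passed the test. The 8 exocrine pancreas markers summed to at most 0.866 CPM. Among markers of other islet cells, Gcg was at 175, 195 and 212 CPM in the controls and at 377, 396.5 and 409 CPM after epinephrine, whereas Sst had at most 16 counts and Ppy at most 4 counts in a sample. The 15 hepatocyte markers summed to 35.5, 106 and 240.3 CPM in controls 1 to 3 and to 24.5 to 28.0 after epinephrine, with Alb at 593 and 1315 counts in controls 2 and 3 and at 3 to 8 counts in the other libraries. The 6 fibroblast markers ran from 1.66 to 23.2 CPM in the controls and from 1.77 to 19.4 after epinephrine. The 6 leukocyte markers ran from 0.974 to 3.06 and from 3.09 to 4.31, and among them Cd68 was at 0.712, 0.343 and 0.563 CPM in the controls and at 3.38, 2.13 and 2.98 CPM after epinephrine (log2 fold change 2.39, FDR 0.00906). The part of these shifts in the results below was not tested. In bulk RNA, fewer cells of a type and less RNA per cell cannot be told apart.

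Chronic epinephrine was accompanied by more mRNA for ER entry, signal peptide removal and N-glycosylation. The 36 genes took 0.73, 0.76 and 0.788% of all counts in controls 1 to 3, and 1.03, 0.993 and 1.03% after epinephrine. Every epinephrine sample was thus above every control. The estimate of the log2 fold change was above 0 for 36 of 36 genes, against 49.5% of all 12747 genes tested, although that of Sec61a2 turned below 0 under other scalings. The median was 0.37 for the list and -0.0023 for all genes tested. At an FDR (Benjamini-Hochberg adjusted p of the edgeR test over all genes) under 0.05, 10 genes were upregulated and 0 were downregulated, which is 27.8% of the list against 2.02% of all genes tested that were higher at that threshold. The 10 were Srprb, Tram1, Ssr2, Spcs3, Sec11c, Ddost, Dad1, Rpn1, Rpn2 and Krtcap2. At an unadjusted p under 0.05, 27 genes were higher and 0 lower, against 9.19% of all genes higher. For 29 genes the lowest epinephrine sample was above the highest control, against 14.3% of all genes. The groups overlapped for Srp14, Srp54a, Srp68, Sec61a2, Sec62, Ost4 and Tusc3. No gene of the list reached a fold change of 2. Because the list was chosen with earlier results of these data known, its shares beside those of all genes are descriptions.

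**Figure D1:**
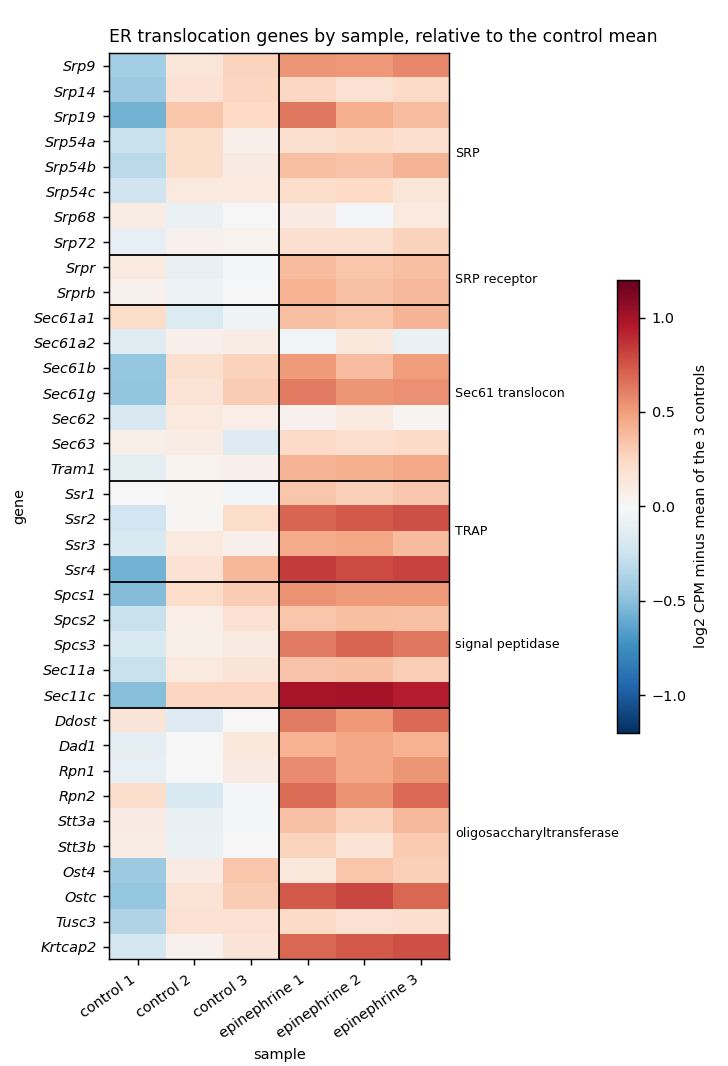
Heat map of the 36 genes (rows, by complex) in the 6 samples (columns), coloured by log2 CPM minus the mean of the 3 controls of that gene. The epinephrine columns are red in nearly every row, with the deepest red for Sec11c, and control 1 is bluer than controls 2 and 3 in 26 rows.

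The size of the change was steadier than the number of calls. Leaving out control 1 gave 27 of 36 genes at an FDR under 0.05, against 12.1% of all genes higher at that threshold in the same fit, and a median log2 fold change of 0.32. Leaving out control 3 gave 4 calls, and leaving out control 2 or any epinephrine sample gave 0 calls by the quasi-likelihood test of edgeR, with 28 genes at an unadjusted p under 0.05 without control 2 and 18, 20 and 19 without epinephrine 1, 2 and 3. All genes higher at that unadjusted p were 8.22% without control 2 and 6.06, 6.36 and 6.03% without epinephrine 1, 2 and 3. At the FDR threshold, 1.17% of all genes were called higher without control 3, 0.683% without control 2 and 0.341 to 0.555% without an epinephrine sample. The median lay between 0.32 and 0.42 in all 6 of these fits. Of the 10 called genes, Ssr2, Spcs3, Rpn1 and Krtcap2 passed in 2 of the 6 fits, without control 1 and without control 3, and the other genes in 1, without control 1. DESeq2 called 16 genes, among them the 10 above, against 2.56% of all genes called higher in that fit. By complex, the fit without control 1 called 3 of 8 SRP genes, 2 of 2 receptor genes, 5 of 7 Sec61 genes, 4 of 4 TRAP genes, 5 of 5 signal peptidase genes and 8 of 10 OST genes.

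**Figure D2:**
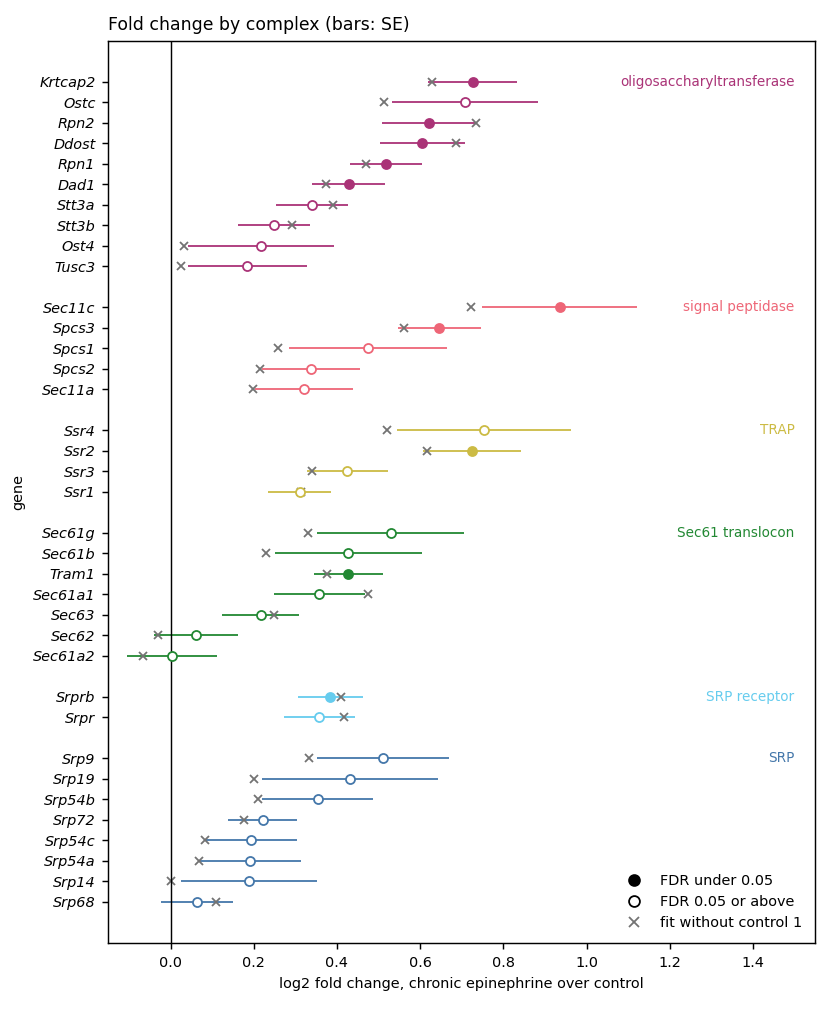
Log2 fold change of each gene (horizontal axis) with its SE as a bar, ordered within complexes, with filled circles for an FDR under 0.05 and crosses for the fit without control 1. All 36 circles lie to the right of 0, from 0.0032 for Sec61a2 to 0.94 for Sec11c, and the crosses of Sec61a2 and Sec62 lie to its left.

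SRP, which recognises the signal peptide, had the lowest median of the complexes in the fit to all samples. Of its 8 genes, 0 were called by edgeR or by DESeq2, against 2.02 and 2.56% of all genes called higher. At an unadjusted p under 0.05, 3 were higher (37.5%, against 9.19% of all genes). Groups did not overlap for 5 (62.5%, against 14.3% of all genes higher without overlap), and the median log2 fold change was 0.21. Srp9, which with Srp14 forms the part of the particle that slows elongation, had the smallest p. It was at 54.5, 80.2 and 87.4 CPM in controls 1 to 3 and at 105, 104 and 108 CPM after epinephrine. Control 1 was far below the other controls, and the log2 fold change was 0.51 (SE 0.16, FDR 0.149), or 0.33 without control 1. Its partner Srp14 was at 48.9, 74.7 and 79.3 CPM in the controls and at 78.7, 75.0 and 77.7 CPM after epinephrine, so that controls 2 and 3 lay just outside either end of the epinephrine range. The scaffold subunits Srp68 and Srp72, which bind the SRP RNA as a heterodimer, had log2 fold changes of 0.06 (FDR 0.753) and 0.22 (FDR 0.218). That of Srp68 ran from 0.017 to 0.108 with a sample left out. Srp19, which is needed to assemble the particle, had 0.43 (SE 0.21, FDR 0.345), or 0.20 without control 1.

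Srp54 is the GTPase that holds the signal peptide, and the mouse genome carries it as Srp54a, Srp54b and Srp54c, side by side on chromosome 12 between positions 55080262 and 55263836 of GRCm38. Of all 50-base windows in their transcripts, 70.5, 89.4 and 93.9% also occur in another gene, mostly in each other, so the split of counts between them is uncertain. Their estimates were 0.19 (FDR 0.469), 0.35 (FDR 0.220) and 0.19 (FDR 0.423), and without control 1 they were 0.07, 0.21 and 0.08. Summed, they were at 341.9, 469.6 and 441 CPM in controls 1 to 3 and at 489, 494.9 and 488.1 CPM after epinephrine. The groups of the sum did not overlap, but controls 2 and 3 were closer to the epinephrine samples than to control 1. The difference of the sum was 0.233 on the log2 scale (p = 0.1 over all permutations of the labels, exact and two-sided, n = 3 and 3, the lowest this design allows).

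Both subunits of the SRP receptor had groups that did not overlap, against 14.3% of all genes higher without overlap. Both estimates were slightly larger without control 1. Srprb (chr9:103188032-103202137, minus strand), the membrane-anchored GTPase subunit, was at 83.9, 77.8 and 81.3 CPM in the controls and at 108, 103 and 106 CPM after epinephrine. It was upregulated, by 0.38 on the log2 scale (SE 0.078, FDR 0.0414). It lost the call when scaled by library size only (FDR 0.0691), with no filter (FDR 0.0598), by limma (FDR 0.0772 and 0.0808) and with a block for replicate number (FDR 0.119). Of the 50-base windows of its transcripts, 19.9% recur in another gene, mainly the read-through model Gm20425 on the same strand. Srpr, the subunit that meets SRP, was at 389, 338 and 353 CPM in the controls and at 468, 453 and 463 CPM after epinephrine. It missed the threshold, with 0.36 (SE 0.085, FDR 0.0749). Without control 1 the estimates were 0.41 and 0.42.

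In the Sec61 group, which here takes in the channel and its partners Sec62, Sec63 and Tram1, the median was 0.36. Of its 7 genes, 1 was called (14.3%, against 2.02% of all genes called higher). At an unadjusted p under 0.05, 5 were higher (71.4%, against 9.19% of all genes). The called gene was Tram1 (chr1:13564698-13589910, minus strand), a multispanning protein beside the channel. It was at 278, 308 and 313 CPM in the controls and at 397, 402 and 409 CPM after epinephrine. The spread within each group was small beside the step between groups, and the log2 fold change was 0.43 (SE 0.083, FDR 0.0364). Sec61a1, the pore-forming subunit, was at 335.5, 257 and 279 CPM in the controls and at 371, 363 and 382 CPM after epinephrine. Control 1 was here the highest control, unlike for most of the list, and the estimate went from 0.36 (SE 0.11, FDR 0.144) to 0.47 without it. The small subunits Sec61b and Sec61g had estimates of 0.43 (FDR 0.264) and 0.53 (FDR 0.177), which were 0.23 and 0.33 without control 1. In both of them control 1 was the lowest library.

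The remaining Sec61 genes did not pass the test. Sec61a2, a paralog of the pore subunit, was at 22.5, 26.0 and 26.6 CPM in the controls and at 24.4, 27.2 and 23.6 CPM after epinephrine. Its samples were fully interleaved, its estimate was 0.0032 (SE 0.11, FDR 0.992), and the sign turned under other scalings. Sec62, which with Sec63 serves proteins that enter after translation, was at 103, 128 and 125 CPM in the controls and at 123, 128 and 121 CPM after epinephrine. Its estimate of 0.06 (SE 0.10, FDR 0.801) became -0.03 without control 1. Sec63, the partner that recruits the ER chaperone BiP, had 0.22 (SE 0.092, FDR 0.277), or 0.14 to 0.25 with a sample left out.

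TRAP is a 4-subunit complex bound to Sec61 that is known to assist insulin biogenesis. Its median of 0.575 was the highest of the complexes in the fit to all samples. Without control 1 it was 0.431, beside 0.430 for OST and 0.413 for the receptor. Groups did not overlap for 4 of 4 TRAP genes. 1 was called by edgeR and all 4 by DESeq2. Of all genes tested, 14.3% were higher without overlap, and 2.02% were called higher by edgeR and 2.56% by DESeq2. Ssr2 (chr3:88575876-88588419, plus strand), which encodes TRAPβ, was at 329, 390.2 and 449.8 CPM in the controls and at 628, 643 and 660.2 CPM after epinephrine. The lowest epinephrine sample was well above the highest control, and the log2 fold change was 0.72 (SE 0.12, FDR 0.0166), a fold change of 1.65. Ssr4, which encodes TRAPδ, had the larger estimate but also the larger spread. It was at 119, 199 and 232 CPM in the controls and at 315, 303 and 310.1 CPM after epinephrine, with 0.75 (SE 0.21, FDR 0.107), or 0.52 without control 1. Ssr3, which encodes TRAPγ, was at 393, 483 and 466.5 CPM in the controls and at 609, 613 and 581 CPM after epinephrine, with 0.43 (SE 0.098, FDR 0.0668). Ssr1, which encodes TRAPα, varied least among the controls, at 403, 408 and 392.5 CPM, and was at 504, 488 and 502 CPM after epinephrine, with 0.31 (SE 0.076, FDR 0.0786).

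Of the 5 genes of signal peptidase, 2 were called (40%, against 2.02% of all genes called higher). All 5 had groups that did not overlap, against 14.3% of all genes higher without overlap. Their median of 0.48 was 0.26 without control 1 and 0.29 with an offset for length and GC content that was added after seeing the data. Sec11c, a catalytic subunit, had the largest fold change of the 36 genes in the fit to all samples. It was at 35.5, 60.8 and 60.8 CPM in the controls and at 101, 102 and 97.9 CPM after epinephrine. Controls 2 and 3 were alike and control 1 was far below them, and the log2 fold change was 0.94 (SE 0.19, FDR 0.0387), a fold change of 1.91. It was 0.72 without control 1, where Rpn2 had 0.73. Sec11a, the other catalytic subunit, was at 48.7, 63.7 and 65.4 CPM in the controls and at 74.7, 75.0 and 72.3 CPM after epinephrine, with 0.32 (SE 0.12, FDR 0.211), or 0.20 without control 1.

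Among the noncatalytic subunits, Spcs3 (chr8:54520433-54529998, minus strand) was upregulated. It was at 239.8, 287 and 294 CPM in the controls and at 420.4, 442 and 422 CPM after epinephrine. The 3 epinephrine samples lay close together and far above the controls, a log2 fold change of 0.65 (SE 0.099, FDR 0.0132). Spcs1 and Spcs2 had 0.48 (FDR 0.25) and 0.34 (FDR 0.194), which were 0.26 and 0.22 without control 1.

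OST, the largest group of the list with 10 genes, held 5 of the 10 calls. These were 50% of its genes, against 2.02% of all genes called higher. Its genes had a median of 0.47. The groups of 8 did not overlap (80%, against 14.3% of all genes higher without overlap). Rpn1 and Rpn2 encode the ribophorins, and Ddost encodes OST48, all of them noncatalytic subunits present in every form of the enzyme. Rpn2 (chr2:157279017-157326319, plus strand) was at 894, 679 and 761 CPM in the controls and at 1228, 1124 and 1239 CPM after epinephrine. Ddost (chr4:138304730-138312628, plus strand) was at 486, 392 and 437 CPM in the controls and at 674, 625 and 700 CPM after epinephrine. In both genes control 1 was the highest control and still below every epinephrine sample. The log2 fold changes were 0.62 (SE 0.11, FDR 0.0286) and 0.61 (SE 0.10, FDR 0.0199), and without control 1 they were 0.73 and 0.69. Rpn1 (chr6:88084482-88105304, plus strand) was at 392, 420.3 and 449.5 CPM in the controls and at 624, 578 and 607 CPM after epinephrine, with 0.52 (SE 0.087, FDR 0.0192). Dad1 (chr14:54235479-54254104, minus strand), a small shared subunit whose loss is known to trigger apoptosis, was at 95.7, 103 and 113 CPM in the controls and at 138, 143 and 138 CPM after epinephrine. It was upregulated by a log2 fold change of 0.43 (SE 0.088, FDR 0.0440). That call was lost under upper quartile scaling (FDR 0.0563), by limma on FPKM (FDR 0.0510 and 0.0525) and with a block for replicate number (FDR 0.112). It was also lost with a length offset, where the estimate was 0.27 (FDR 0.124). Rpn2 was not called by limma either (FDR 0.0554 and 0.0549).

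OST exists in a form built on the catalytic subunit Stt3a, which works at the translocon, and a form built on Stt3b, which can glycosylate sites that the first has passed over. Krtcap2 (chr3:89245966-89249906, plus strand) and Ostc belong to the Stt3a form. Krtcap2 was at 76.8, 92.1 and 99.2 CPM in the controls and at 144, 148 and 152 CPM after epinephrine. It had the lowest FDR of the list, at a log2 fold change of 0.73 (SE 0.11, FDR 0.0108), although 12.5% of the windows of its transcripts also occur in Trim46 on the opposite strand and it is not given whether counting used strand. Ostc was at 112, 172 and 190 CPM in the controls and at 256, 269 and 249 CPM after epinephrine, with a like estimate of 0.71 and a wider spread (SE 0.18, FDR 0.0803). Stt3a itself was at 343, 301.5 and 318 CPM in the controls and at 409.9, 387 and 421 CPM after epinephrine, with 0.34 (SE 0.086, FDR 0.0867). Stt3b had 0.25 (SE 0.087, FDR 0.192), and its groups did not overlap either. Tusc3, an oxidoreductase subunit of the Stt3b form, was at 159, 233 and 232 CPM in the controls and at 241, 233 and 236 CPM after epinephrine. Controls 2 and 3 were level with the epinephrine samples, and the estimate of 0.18 (FDR 0.558) was 0.02 without control 1. Ost4, a very small subunit, had 0.22 (FDR 0.574), or 0.03 without control 1, and 49.2% of its windows are shared, mainly with Agbl5 on the opposite strand.

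Levels of different genes can be compared only per transcript length, as FPKM (fragments scaled to transcript length and library total). The summed FPKM of the list was 3852 ± 395 (SD, n = 3) in the controls and 5352 ± 86.2 after epinephrine. By complex, it went from 1310 ± 62.1 to 1846 ± 38.6 for OST, from 823 ± 135 to 1278 ± 14.2 for TRAP and from 583 ± 66 to 757 ± 24 for the Sec61 group. For signal peptidase it went from 535 ± 102 to 750.3 ± 7.11, for SRP from 452.5 ± 62.1 to 534 ± 9.84 and for the receptor from 148 ± 12.1 to 187 ± 4.4. In each complex the epinephrine samples were thus above the controls and closer to one another. Control 1 had the lowest sum for SRP, the Sec61 group, TRAP and signal peptidase. For OST it was level with control 2 (1272 and 1276), and for the receptor it was the highest control (162). The FPKM of all genes summed to 475433 in control 1 against 541667 to 560478 in the other libraries. The part of that total in the spread was not tested.

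Subunits of one complex differed widely in level. Ssr2 had the highest mean, at 370 ± 51.7 FPKM in the controls and 601 ± 14.0 after epinephrine, whereas Ssr1 of the same complex was at 64.8 ± 2.12 and 84.6 ± 3.65. Rpn2 followed at 285 ± 44.4 and 430.3 ± 24.9, with control spreads that overlap and a higher level than Ssr2 in control 1 (333.8 against 318.8 FPKM). Next came Ssr4, Sec61b, Ddost and Spcs2, whose control values (233 ± 70.8, 217 ± 52.9, 209 ± 25.4 and 191 ± 28.4) did not differ beyond their spread. Between 111 and 159 FPKM in the controls lay 8 genes, Spcs1, Ssr3, Ostc, Tusc3, Srpr, Dad1, Rpn1 and Ost4, again with neighbours that their spread does not separate. Srprb, at 26.7 ± 1.38, was far below its partner Srpr, at 122 ± 10.7. Sec61a2 was the lowest, at 10.5 ± 0.895 and 10.4 ± 1.06. These are mRNA levels and say nothing of the amounts of protein.

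**Figure D3:**
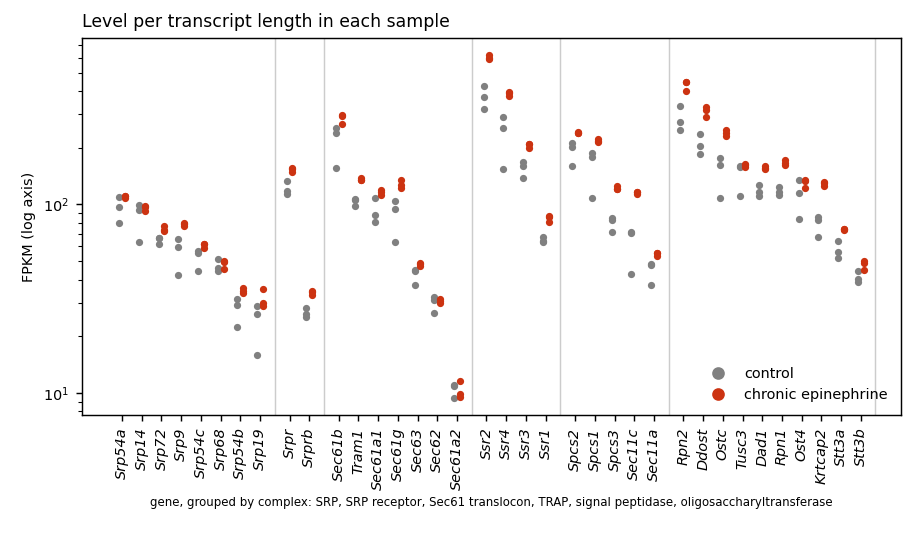
FPKM of each gene on a log axis, 1 point for each sample, controls in grey and chronic epinephrine in red, with genes grouped by complex in the order written under the axis. The points run from 9.45 FPKM (Sec61a2 in control 1) to 616.7 FPKM (Ssr2 in epinephrine 3), and the red points are the higher ones in most genes.

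Several subunits have a paralog that takes the same place, and the ratio of their FPKM asks whether the makeup of a complex shifted. Sec11c over Sec11a was 1.142, 1.497 and 1.458 in controls 1 to 3 and 2.12, 2.12 and 2.12 in the epinephrine samples, a log2 difference of 0.64. The epinephrine samples were almost identical and above every control. Control 1 had the lowest ratio, so the difference would be smaller without it. Stt3a over Stt3b went from 1.39 ± 0.0405 (SD, n = 3) to 1.54 ± 0.0808, and Tram1 over Tram2 from 106 ± 29.3 to 151 ± 13.2, both without overlap. Tram2 was low, at 1.02 ± 0.231 FPKM in the controls and 0.903 ± 0.0862 after epinephrine, with 81 to 121 counts in a sample. Each of these 3 ratios had p = 0.1 when the sample labels were permuted (exact, two-sided), which 3 against 3 samples cannot go below, and 0.167 after adjustment over the 5 ratios computed. Sec61a1 over Sec61a2 went from 8.95 ± 2.24 to 11.3 ± 1.4 (exact p = 0.2, adjusted 0.25), and the oxidoreductases Tusc3 over Magt1 from 5.17 ± 0.891 to 4.42 ± 0.17 (exact p = 0.4, adjusted 0.4). In both of these the groups overlapped through control 1 alone, and without it the log2 differences went from 0.36 to 0.55 and from -0.21 to -0.35. That of Tram1 over Tram2 went from 0.55 to 0.37.

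**Figure D4:**
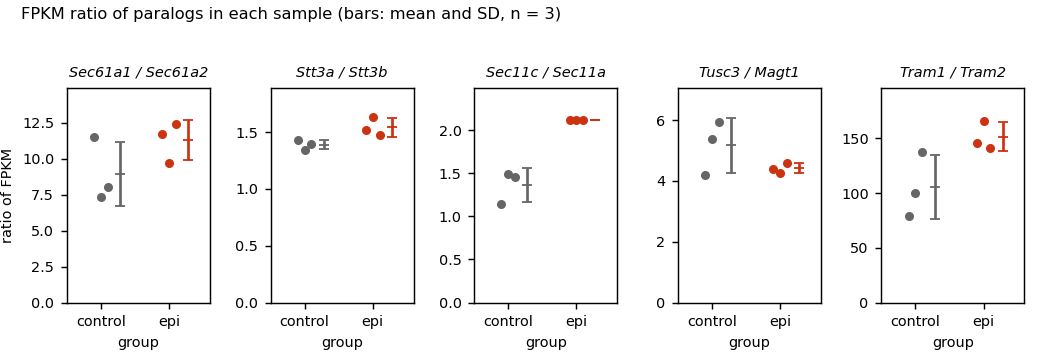
Ratio of the FPKM of 5 pairs of paralogs in each sample (points), with the mean and SD of each group (bars, n = 3) and vertical axes that start at 0. The groups are apart for Stt3a/Stt3b, Sec11c/Sec11a and Tram1/Tram2 and overlap through control 1 for the other pairs, and the 3 epinephrine values of Sec11c/Sec11a fall on 2.12.

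Control 1 was below both other controls for 26 of the 36 genes, above both for 8 and between them for 2. Of the 10 called genes, it was below for 7 and above for 3, namely Srprb, Ddost and Rpn2. Its position followed transcript length, taken as the length that the deposited counts and FPKM imply (563 to 6032 bases). Across the 36 genes, Spearman's rho between that length and the log2 difference of control 1 from controls 2 and 3 was 0.756, and it was 0.468 across all 12747 genes. The points share the same 3 libraries, and the value is a description. Short transcripts such as Ssr4, Spcs1, Sec11c and Srp19 were low in control 1 by 0.86, 0.79, 0.77 and 0.85 on the log2 scale. Length and log2 fold change had a rho of -0.356 across the list with all samples and 0.0131 without control 1. Across all genes these were -0.294 and -0.018. The part of transcript length or RNA quality in control 1 was not tested.

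**Figure D5:**
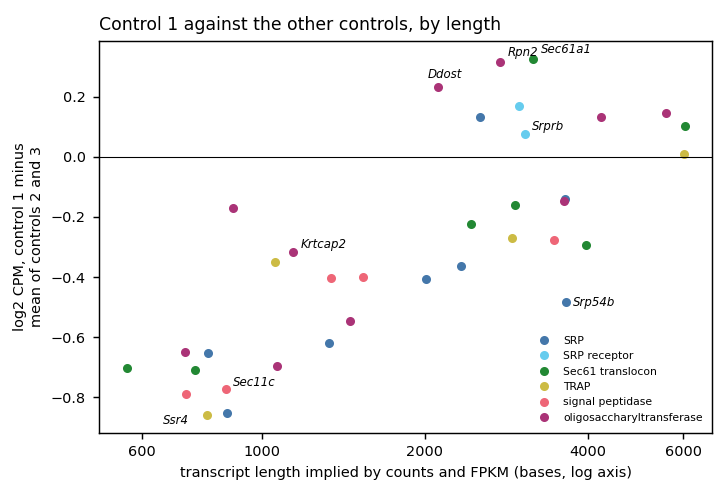
Each point is 1 of the 36 genes, with its implied transcript length in bases on a log axis and the log2 CPM of control 1 minus the mean of controls 2 and 3 on the vertical axis, coloured by complex. Points of short transcripts lie below 0 and several of the long ones above it, with a rho of 0.756.

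Promoter sequence was looked at because the estimates of the listed genes had the same sign in the fit to all samples. RefSeq promoters on GRCm38.p6, from 250 bases before to 50 after the start, were at hand for 27 of the 36 genes (29 windows), among them 6 of the 10 called genes. The last 100 bases before the RefSeq start are printed for those 6, for Srpr, and for Srp14 and Sec61a2, whose groups overlapped. They are read 5′ to 3′ on the gene's strand, and the capitals mark the short motif CCACG, the CCAAT box or the longer motif TGACGTGT on either strand. The RefSeq start lies inside the GENCODE gene for Srprb, Ddost, Dad1, Rpn2, Krtcap2, Srp14 and, by the widest distance, Srpr, and the first bases after the Rpn1 start were not found in the GENCODE transcripts. The windows are chr9:103202066-103202165 (minus strand) for Srprb, chr4:138304638-138304737 (plus) for Ddost, chr14:54253930-54254029 (minus) for Dad1, chr6:88084373-88084472 (plus) for Rpn1, chr2:157278998-157279097 (plus) for Rpn2, chr3:89246338-89246437 (plus) for Krtcap2, chr9:35211103-35211202 (plus) for Srpr, chr2:118479697-118479796 (minus) for Srp14 and chr2:5895433-5895532 (minus) for Sec61a2.
Srprb: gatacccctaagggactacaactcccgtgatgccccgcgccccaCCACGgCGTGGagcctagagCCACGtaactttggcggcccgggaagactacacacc
Ddost: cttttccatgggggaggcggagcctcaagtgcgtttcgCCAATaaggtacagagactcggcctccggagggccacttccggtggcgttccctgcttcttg
Dad1: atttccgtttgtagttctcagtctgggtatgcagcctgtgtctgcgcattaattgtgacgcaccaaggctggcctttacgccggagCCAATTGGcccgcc
Rpn1: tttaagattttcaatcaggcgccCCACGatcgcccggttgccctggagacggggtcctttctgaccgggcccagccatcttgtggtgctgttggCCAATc
Rpn2: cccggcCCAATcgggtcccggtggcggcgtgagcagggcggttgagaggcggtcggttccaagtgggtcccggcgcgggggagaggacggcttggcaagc
Krtcap2: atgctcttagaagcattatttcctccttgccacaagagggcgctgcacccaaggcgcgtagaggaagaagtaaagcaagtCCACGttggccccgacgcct
Srpr: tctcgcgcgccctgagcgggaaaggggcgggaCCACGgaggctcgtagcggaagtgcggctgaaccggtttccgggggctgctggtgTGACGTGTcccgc
Srp14: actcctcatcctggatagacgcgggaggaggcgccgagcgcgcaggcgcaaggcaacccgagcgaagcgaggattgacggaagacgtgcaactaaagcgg
Sec61a2: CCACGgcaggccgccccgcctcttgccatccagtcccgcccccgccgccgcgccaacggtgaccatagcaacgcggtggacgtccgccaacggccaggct

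CCACG and CCAAT are the ends of the ER stress response element (ERSE), through which ATF6 acts together with NF-Y, and CCACG alone occurs in many promoters. On either strand, CCACG was in 18 of the 29 windows (62.1%), against 32.8% of all 32851 promoters and 46.6% of the 13051 promoters of tested genes. CCAAT was in 55.2%, against 37.4 and 38%. The full ERSE, with 9 bases between its ends, was in 0 of 29, against 0.119 and 0.13%. TGACGTGT, an 8-letter form of the element bound by XBP1 and ATF6, was in 1 window, that of Srpr at -13 to -6 from the start, against 0.472% of all promoters and 0.613% of those of tested genes. TGACGTGG, which overlaps CCACG on the opposite strand, and the forms TGATGCAAT and TGATGAAAC of the element bound by CHOP and ATF4 were in 0 of 29, against 0.676, 0.192 and 0.247% of all promoters. GC content was alike in the windows of the list (median 60%) and of tested genes (61%), and lower over all promoters (52.7%). These matches are descriptions of letters in short windows, and Sec61a2, whose groups overlapped, carries CCACG as Srprb does.

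A further 33 genes belong to neighbouring routes into the ER membrane or act beside the listed complexes. Of these, 28 had an estimate above 0 with a median of 0.20, 2 were called (6.06%, against 2.02% of all genes tested) and 9 were higher at an unadjusted p under 0.05 (27.3%, against 9.19%). H13, which encodes signal peptide peptidase, the protease that clears cut signal peptides from the membrane, was at 99.0, 92.9 and 107 CPM in the controls and at 149, 151 and 161 CPM after epinephrine, which is a log2 fold change of 0.63 (SE 0.087, FDR 0.00944). Magt1, the paralog of Tusc3 in OST, was at 111, 123 and 118 CPM in the controls and at 153, 156 and 152 CPM after epinephrine, with 0.39 (SE 0.080, FDR 0.0449), a call lost under upper quartile scaling (FDR 0.0537), library size only (FDR 0.0584), no filter (FDR 0.0606) and limma (FDR 0.0623 and 0.0645). Both called genes thus act on the products of signal peptidase or in OST itself, and their groups did not overlap. The count of calls among the further genes was 14 without control 1 (42.4%, against 12.1% of all genes in that fit). It was 1 without control 3, where 1.17% of all genes were called higher. By edgeR it was 0 without control 2 (0.683% of all genes) or any epinephrine sample (0.341 to 0.555%). In these last 4 fits 8, 6, 7 and 6 genes were at an unadjusted p under 0.05, against 8.22, 6.06, 6.36 and 6.03% of all genes higher at that p.

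The 4 further genes of OST and signal peptide processing, Magt1, Tmem258, H13 and Mlec, had a median of 0.39. Their groups did not overlap, against 14.3% of all genes higher without overlap. Within the rest, the ER membrane protein complex, an insertase for membrane proteins, had a median of 0.20 and 0 of 10 genes called by edgeR. By DESeq2 1 of its genes (Emc7) was called, against 2.56% of all genes called higher. At an unadjusted p under 0.05, 2 of its genes were higher (20%, against 9.19% of all genes). Without control 1, 4 of its 10 genes were called (40%, against 12.1% of all genes in that fit). The genes of the tail-anchored route, which works after translation, had a median of 0.06, or 0.099 without control 1. Of the route's 7 genes, 0 were called by either tool, against 2.02% (edgeR) and 2.56% (DESeq2) of all genes called higher. Of the 7, 1 was higher at an unadjusted p under 0.05 (14.3%, against 9.19% of all genes). Without control 1, 1 of 7 was called (14.3%, against 12.1%). The 9 genes of the multipass translocon and other Sec61 partners had 0 calls by either tool and a median of 0.18. Of the 9, 2 were higher at an unadjusted p under 0.05 (22.2%, against 9.19% of all genes), and 5 were called without control 1 (55.6%, against 12.1%). Naca and Btf3, the nascent chain complex, had 0 of 2 called by either tool, 0 at an unadjusted p under 0.05, and a median of 0.21 that was 0.02 without control 1. Tmem208, of the SRP-independent route, had 0.40 (SE 0.13, FDR 0.158). In the deposited annotation, 21 of the 36 listed genes carry the KEGG pathway for protein export, 18 that for protein processing in the ER and 7 that for N-glycan biosynthesis.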

How the data were processed

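Total RNA of MIN6 cells (3 controls and 3 samples after chronic epinephrine) was sequenced, and the authors deposited 1 table that holds, per gene and sample, an expected count and the FPKM. The expected counts carry no normalization between samples, and 8.34% of them are not whole numbers, so they were rounded. The deposited FPKM values are scaled by the authors to transcript length and library total. The submitters' notes name GRCm38, and the aligner, counter, strandedness and annotation release are not given in the sources used here. Of the gene identifiers, 22255 of 22298 were found in GENCODE mouse release 21, which gave positions and shared 50-base windows. Promoters came from RefSeq.

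Counts of 12747 genes kept by filterByExpr were normalized by TMM and tested with the quasi-likelihood test of edgeR 4.0.16 (R 4.3.3), in a model with the 2 groups alone. CPM are TMM-adjusted, except for marker sums, which use library totals. The SE is the size of the log2 fold change divided by the square root of F, and FDR is the Benjamini-Hochberg adjusted p over all genes tested, with a threshold of 0.05. FPKM ratios were compared by exact permutation tests. The procedure was tested on simulated counts with 200 changed genes. With 15017065 to 18127171 counts in a library, 205 or more counts lay behind every value of a listed gene.

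Alternatives were other scalings and filters, DESeq2 1.42.0, limma 3.58.1 on log2 (FPKM + 1 or + 0.1), a replicate block, an offset for length, and each sample left out. The genes and lists were chosen with earlier results of these data known. Listed genes with an FDR under 0.05, extended to the 12 with the smallest p, the first gene of each complex by p, and further genes with an FDR under 0.05 were named with per-sample values. The values of the other genes shown by sample were chosen after they were seen. The KEGG terms are those of the deposited table.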

Additional observations from a re-analysis of the deposited data

How the results depend on the processing

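The number of listed genes at an FDR under 0.05, 10 as reported, was 7 to 10 under other scalings, filters and limma on FPKM. It was 16 by DESeq2, 16 with a length offset and 5 with the replicate block, in fits that called 2.56, 3.04 and 1.18% of all genes higher. Leaving out a sample gave 0 to 27, with 27 without control 1. Alternatives added after seeing the data gave 24 (an offset for length and GC) and 31 (control 1 as the only control, which is then assumed to vary like the other group), in fits that called 5.98 and 23.7% of all genes higher. The median log2 fold change, 0.37, ran from 0.32 to 0.42 with a sample left out and was 0.57 with control 1 as the only control. The cause of these differences was not tested. The same 10 genes remained called with DESeq2 size factors, a minimum of 10 counts, DESeq2 and without control 1, and 9 of them with a length offset. The 2 calls among the further genes became 1 under upper quartile scaling, library size only, no filter, the replicate block and limma at either pseudocount. The count was 4 by DESeq2, 3 with a length offset, 9 with length and GC, and 0 to 14 with a sample left out. The estimate of Sec61a2 was -0.003629 with DESeq2 size factors, -0.02275 by library size only, -0.003405 by DESeq2, -0.01579 and -0.01722 by limma at a pseudocount of 1 and 0.1, -0.01935 with a length offset, -0.03147 with length and GC, and -0.06563 to 0.04888 with a sample left out. That of Sec62 was -0.03035 to 0.1131 with a sample left out, and that of Srp68 was -0.03577 with control 1 as the only control.

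The labels do not say whether the replicate numbers mark pairs, and 3 samples in a group are too few to decide it. The deviations of same-numbered samples from their group means had correlations of 0.0502, 0.0677 and -0.0488. Controls 1 and 3 correlated best with epinephrine 3 and 2, and control 2 with epinephrine 2, its own number. With the replicate block, 5 of the 10 genes and 1 of the 2 further genes stayed under an FDR of 0.05. Srprb, Tram1, Sec11c, Dad1, Rpn1 and Magt1 lost their calls there (FDR 0.119, 0.103, 0.0544, 0.112, 0.0708 and 0.123). Their estimates in that fit were 0.38, 0.43, 0.97, 0.43, 0.52 and 0.39.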
